A study of Mus musculus with 15 samples.

Results

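The genes described here encode the matrix metalloproteinases (MMPs), the ADAMTS proteinases and the tissue inhibitors of metalloproteinases (TIMPs). They were taken by gene symbol from the table of normalized counts, as every numbered *Mmp*, *Adamts* and *Timp* gene whose values averaged 5 or more across the 15 libraries. Of the 53465 genes of the table, 46 matched by name and 42 reached this mean, namely 19 *Mmp*, 19 *Adamts* and all 4 *Timp* genes. The 4 that did not were *Mmp7*, *Mmp1a*, *Mmp24* and *Mmp1b*, with means of 1.35, 2.09, 3.32 and 3.91. The members closest above the limit were *Mmp21* at 5.48 and *Adamts13* at 7.01. In 34 of the 42 the mean was at least 5 in each population, and the other 8 passed through 1 or 2 populations.

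MMPs are zinc-dependent proteinases that cut collagens, proteoglycans and glycoproteins of the extracellular matrix, and most are secreted as inactive precursors while a few stay anchored in the cell membrane. ADAMTS enzymes are secreted relatives with thrombospondin repeats that cleave hyaluronan-binding proteoglycans such as aggrecan and versican, trim procollagens or cut von Willebrand factor. TIMPs bind the active site of MMPs and block it, and *Timp3* also blocks several ADAMTS enzymes. In growing vessels these enzymes are known for opening the basement membrane, for releasing matrix-bound growth factors and for shaping the matrix that the sprout enters.

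The libraries came from tumors of B16-F0, a mouse melanoma cell line, in CAG-GFP transgenic mice 8 to 14 weeks old that express GFP in all their cells. Tumors were collected on day 15 and digested with collagenase and dispase, lineage positive cells were depleted, and GFP+ host cells that were CD34+ were sorted by CD31 and VEGFR2 without further treatment. Endovascular progenitors (EVP) were CD31 lo and VEGFR2 lo, transit amplifying cells (TA) were CD31 int and VEGFR2 lo, and definitive differentiated cells (D) were CD31 hi and VEGFR2 hi, with 5 libraries each. Neither the labels nor the methods say whether animals were pooled, or whether replicates came from separate animals, so the p-values measure the spread between libraries.

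Libraries held 5394356 to 26513073 reads on genes, and the detection limit of 3 reads corresponded to 1.81 to 10.5 normalized counts. Replicate 1 of each population stood apart, with the predicted gene *Gm10800* taking 10.6% of reads in EVP, 8.69% in TA and 8.495% in D. Reads fell on 81.6% to 98.3% of olfactory receptor genes in these 3 libraries, on 57.8% to 71.0% in EVP replicate 2 and TA replicates 2 and 3, and on 2.89% to 24.1% in the others. The 10 pan-endothelial markers, 2 of which were used in the sort, summed to 2230 to 4206 normalized counts in EVP, 5703 to 68850.5 in TA and 95258 to 154877 in D, and none of them was at 0 throughout a population. Without the 2 sorted markers, the sums were 1598 to 3276 in EVP, 4923 to 43738 in TA and 58261 to 96436 in D. *Tek* made up most of this in EVP, with a mean of 1578 (583 in TA and 2379 in D), beside 817, 18841 and 71447 for the other 7 markers together. The 10 fibroblast markers, such as *Pdgfra*, *Dcn* and *Lum*, summed to 847250.0 to 1505580.0 in EVP, 192799 to 611636 in TA and 1167 to 4252 in D. All 10 were higher in EVP than in D, beside 11.6% of all genes tested. Their part in the results below was not tested. In these bulk samples, fewer cells of a type and less RNA per cell cannot be told apart.

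A normalized count is the number of reads on a gene divided by 1 size factor per library. Limma was fitted to log2(normalized count + 1) of the 25549 genes with a mean of 5 or more, and a gene was called at a Benjamini-Hochberg adjusted p under 0.05. This scale understates the change of low genes. A fold is the ratio of 2 population means of normalized counts, ± marks the SD (n = 5) unless SE is written, and values listed for a population run from replicate 1 to replicate 5.

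**Figure D1:**
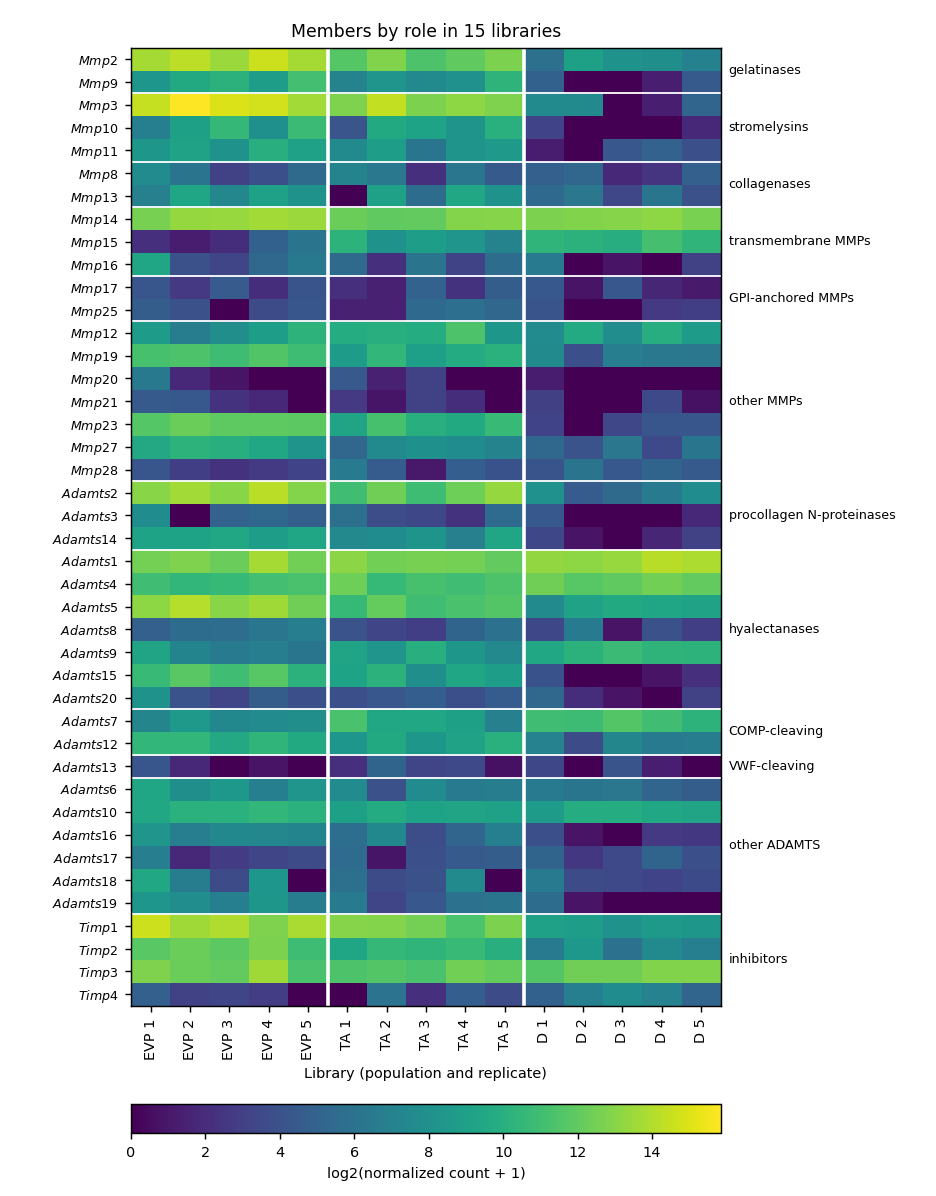
Heat map of the 42 genes (rows, grouped by role) in 15 libraries (columns, by population and replicate), with color for log2(normalized count + 1). The blocks of *Mmp2*, *Mmp3*, *Mmp23*, *Adamts2* and *Adamts15* are bright in EVP and dark in D, *Mmp15* is dark in EVP and brighter in D, and *Mmp14*, *Adamts1* and *Timp3* are bright in every library.

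The first comparison, between the ends of the sorted hierarchy, set EVP against D. Of the 42 genes, 24 (57.1%) were called, beside 19.0% of all genes tested. Among them 18 were higher in EVP (background 11.6%) and 6 were higher in D (background 7.46%). The genes higher in EVP were *Mmp2*, *Mmp3*, *Mmp9*, *Mmp10*, *Mmp11*, *Mmp19*, *Mmp23*, *Mmp27*, *Adamts2*, *Adamts5*, *Adamts6*, *Adamts12*, *Adamts14*, *Adamts15*, *Adamts16*, *Adamts19*, *Timp1* and *Timp2*. Those higher in D were *Mmp15*, *Adamts1*, *Adamts4*, *Adamts7*, *Adamts9* and *Timp4*. The libraries of the populations did not overlap for 24 genes, beside 17.7% of all genes, and 23 of these 24 were called. In 8 members the mean was under 5 in at least 1 population, and *Mmp10*, *Adamts14*, *Adamts15* and *Adamts16*, which passed the minimum only through EVP and TA, enter the count of calls between EVP and D. The median log2 fold change was 2.49 over the 42 genes and 0.46 over all genes tested, a difference of 2.03. The median of all genes depended on scaling and on EVP replicate 1, being -0.05 after quantile normalization and 0.0012 without that library. With edgeR on whole reads 22 members were called (15.1% of all genes), and with DESeq2 27 (21.7%).

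**Figure D2:**
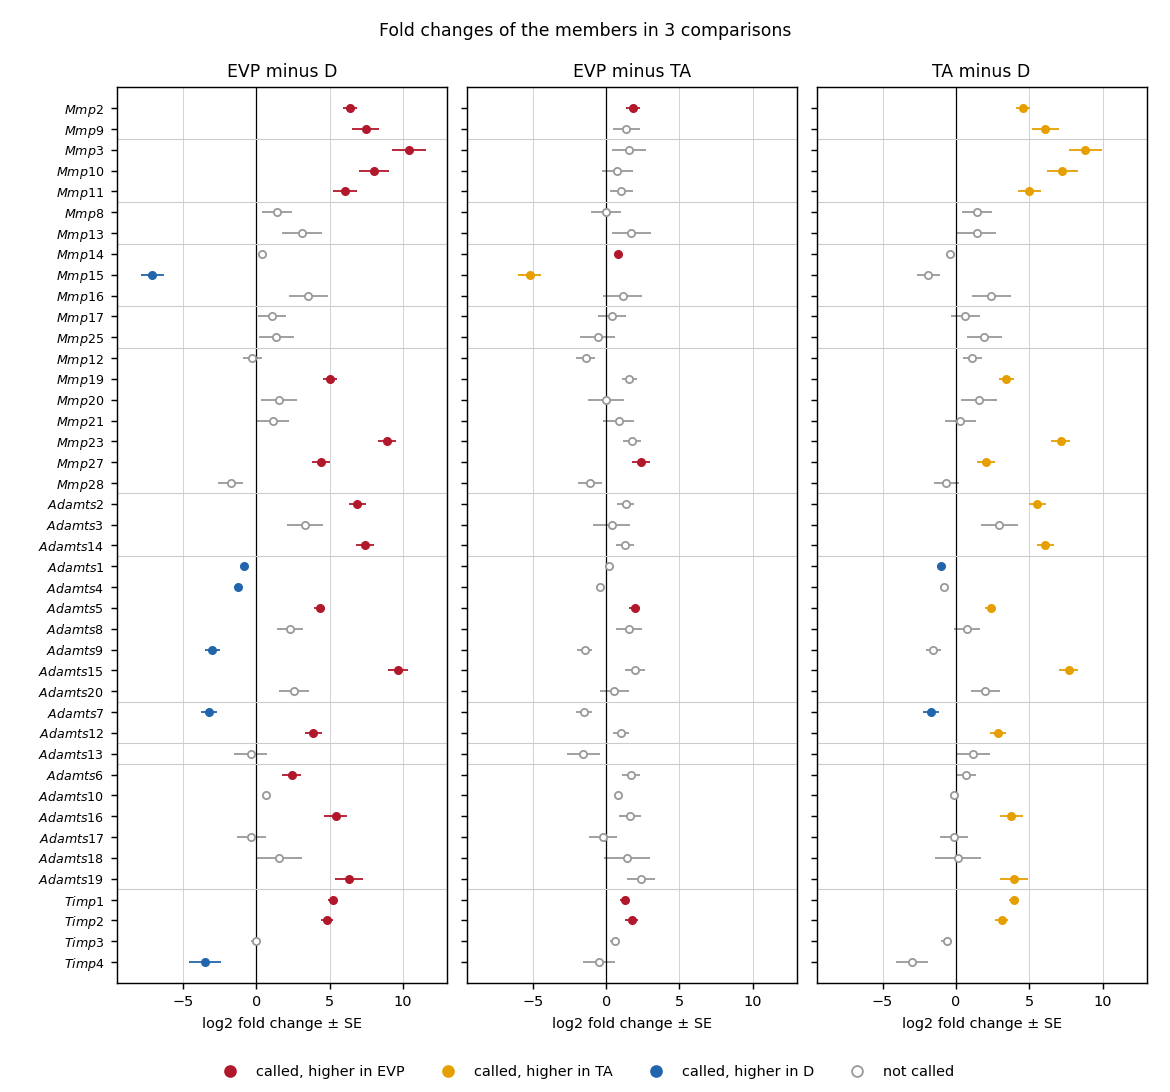
Log2 fold changes (points) with SE (bars) of the 42 genes in 3 comparisons, colored by the population in which a called gene was higher and open where it was not called. In EVP minus D, 18 points are called to the right of 0 and 6 to the left, in EVP minus TA 6 and 1, and in TA minus D 17 and 2.

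The 2 gelatinases, which degrade denatured collagen and basement membrane collagen, were both higher in EVP than in D. *Mmp2* had 13202, 19320.1, 11414, 25729 and 13513 normalized counts in EVP, 3185, 7477, 2756, 4056 and 6701 in TA and 56.3, 504, 283, 232 and 125 in D. Every EVP library lay above every TA library, and every TA library lay above every D library. The mean was 69.3-fold higher in EVP than in D (log2 fold change 6.39 ± 0.46 (SE), limma adjusted p = 1.92e-08). *Mmp9*, the other gelatinase, averaged 981 ± 741 in EVP, 431 ± 469 in TA and 10.4 ± 13.8 in D (log2 fold change 7.47 ± 0.93 (SE), limma adjusted p = 1.04e-05). Its EVP libraries spread from 320 to 2173, while D replicates 2 and 3 had no read of it.

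All 3 stromelysins were higher in EVP. *Mmp3*, which cleaves proteoglycans and fibronectin and activates other MMPs, had 22713, 58832, 33313, 27295 and 12575 normalized counts in EVP, 7053, 21719, 6794, 8967 and 7056 in TA and 192, 189, 0, 1.502 and 35.7 in D. Every D library lay below the lowest TA library, while TA replicate 2 lay within the range of EVP. EVP had a 370.2-fold higher mean than D (log2 fold change 10.40 ± 1.14 (SE), limma adjusted p = 2.63e-06). *Mmp10*, a close relative of *Mmp3*, had 112, 515, 1472, 245 and 1776 in EVP, 17.2, 773, 596, 288 and 1069 in TA and 8.24, 0, 0, 0 and 2.42 in D. Its levels in EVP and TA overlapped over most of their range, and 3 D libraries had no read. The difference from D was called for EVP (log2 fold change 8.02 ± 1.04 (SE), limma adjusted p = 1.65e-05). *Mmp11*, which is secreted in active form, averaged 537 ± 276 in EVP, 282 ± 159 in TA and 12.7 ± 12.5 in D (log2 fold change 6.05 ± 0.81 (SE), limma adjusted p = 2.33e-05).

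*Mmp3* and *Mmp10* lie on mouse chromosome 9 in a run of 10 *Mmp* genes that spans 427.072 kb (GRCm38). In their order along the chromosome these are *Mmp13*, *Mmp12*, *Mmp1b*, *Mmp3*, *Mmp1a*, *Mmp10*, *Mmp8*, *Mmp27*, *Mmp20* and *Mmp7*, of which 7 passed the minimum mean and *Mmp3*, *Mmp10* and *Mmp27* were called higher in EVP than in D. The log2 fold changes of the other 4, none of them called, were 3.12 for *Mmp13*, 1.58 for *Mmp20*, 1.40 for *Mmp8* and -0.27 for *Mmp12*. *Mmp12*, the macrophage elastase, lies between *Mmp13* and *Mmp3*, and no difference was called between EVP and D (limma adjusted p = 0.835).

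**Figure D3:**
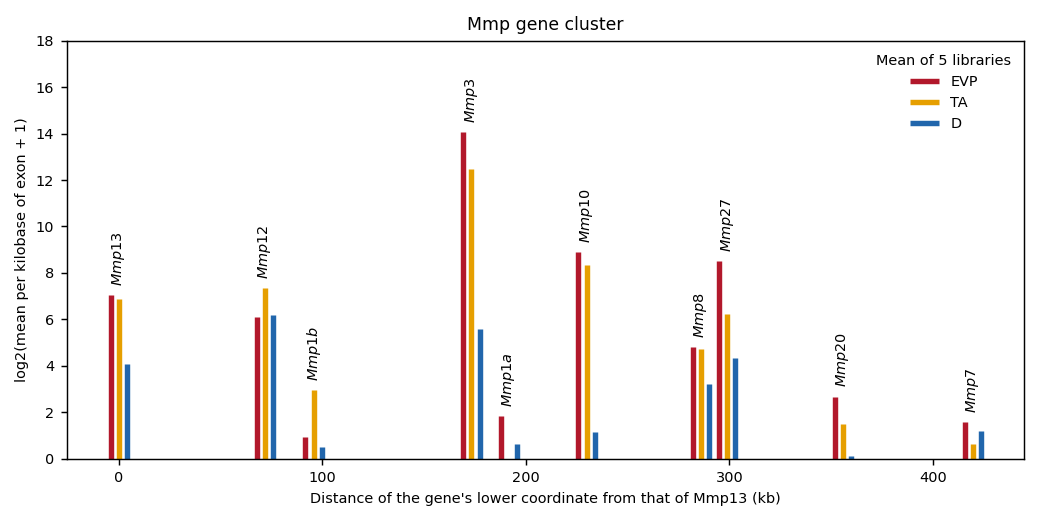
Mean level of each gene of the chromosome 9 run in EVP, TA and D (bars, mean of 5 libraries), as log2(mean normalized count per kilobase of exon + 1), against the distance of its lower coordinate from that of *Mmp13* in kb. *Mmp3* stands highest in EVP and TA, *Mmp3*, *Mmp10* and *Mmp27* drop in D, and *Mmp12* has its highest bar in TA.

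The 250 bases before the start of 3 genes of this run are shown because 2 of them are among the largest differences and *Mmp13* is their neighbor with the same letters. Sequences are from RefSeq (GRCm38.p6), 5′ to 3′ on the strand of the gene, with capitals for TGAGTCA (or TGACTCA), the letters that AP-1 factors bind, for TATAAA, the TATA box, and for GGGCGG (or CCGCCC), the GC box.
*Mmp3* (chr9:7445572-7445821, plus strand): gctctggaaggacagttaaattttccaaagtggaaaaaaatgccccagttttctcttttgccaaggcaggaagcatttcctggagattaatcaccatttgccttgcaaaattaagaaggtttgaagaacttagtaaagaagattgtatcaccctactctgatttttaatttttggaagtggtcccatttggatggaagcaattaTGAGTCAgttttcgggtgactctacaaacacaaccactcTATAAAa
*Mmp10* (chr9:7502092-7502341, plus strand): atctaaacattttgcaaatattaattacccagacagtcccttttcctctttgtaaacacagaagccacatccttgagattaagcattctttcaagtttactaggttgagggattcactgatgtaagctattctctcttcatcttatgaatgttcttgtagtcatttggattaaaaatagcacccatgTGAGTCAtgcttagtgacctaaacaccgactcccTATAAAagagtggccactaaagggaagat
*Mmp13* (chr9:7272264-7272513, plus strand): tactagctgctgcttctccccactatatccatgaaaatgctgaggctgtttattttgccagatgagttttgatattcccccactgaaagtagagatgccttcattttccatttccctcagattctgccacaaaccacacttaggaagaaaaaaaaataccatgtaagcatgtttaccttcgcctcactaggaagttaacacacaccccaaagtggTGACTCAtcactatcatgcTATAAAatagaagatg
In the next sequences, *Timp1* had the highest level per length in TA and *Adamts1* the highest in D.
*Timp1* (chrX:20869916-20870165, plus strand): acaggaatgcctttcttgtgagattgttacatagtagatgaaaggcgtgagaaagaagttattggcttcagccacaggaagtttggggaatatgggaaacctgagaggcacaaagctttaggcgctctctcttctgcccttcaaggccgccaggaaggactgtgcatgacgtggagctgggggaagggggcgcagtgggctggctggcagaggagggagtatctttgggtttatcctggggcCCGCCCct
*Adamts1* (chr16:85803114-85803363, minus strand): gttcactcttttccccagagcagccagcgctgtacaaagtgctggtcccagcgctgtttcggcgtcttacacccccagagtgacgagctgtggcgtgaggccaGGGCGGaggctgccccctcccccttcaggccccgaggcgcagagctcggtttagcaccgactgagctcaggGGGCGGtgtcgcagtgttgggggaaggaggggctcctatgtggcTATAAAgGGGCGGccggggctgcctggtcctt

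The AP-1 letters began 46 bases before the start of *Mmp3*, 63 bases before that of *Mmp10* and 35 bases before that of *Mmp13*. RefSeq promoters, from 250 bases before to 50 after the start, were held for 28 of the 42 genes. On either strand, TGAGTCA occurred in 4 of these 28 genes (14.3%), beside 5.95% of 27025 genes with a promoter. The 4 were *Mmp3*, *Mmp10*, *Mmp13* and *Mmp12*, all in the chromosome 9 run, and in *Mmp12* they lie 44 bases before the second of its 2 RefSeq starts and are missing from the window of the first. TATAAA occurred in 8 of the 28 (28.6%, beside 15.7% of all), GGGCGG in 17 (60.7%, beside 38.2%) and AGGAAG, the core letters of ETS sites, in 12 (42.9%, beside 38.4%). *Mmp3*, *Mmp10* and *Mmp13* held no GC box in the printed stretch, and *Timp1* and *Adamts1* held no AP-1 letters there. These letters are a description of the sequences, and their absence says only that they are not in these windows.

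The collagenases, which make the first cut in fibrillar collagen, were not called in any comparison. *Mmp13* had 119, 658, 158, 528 and 285 normalized counts in EVP, 0, 531, 47.99, 708 and 285 in TA and 41.2, 78.4, 9.38, 71.4 and 14.5 in D. All EVP libraries lay above all D libraries, and TA ran from no read in replicate 1 to the highest value of all in replicate 4. The difference between EVP and D had a wide error (log2 fold change 3.12 ± 1.33 (SE), limma adjusted p = 0.129). It was called when TA replicate 1 was left out (limma adjusted p = 0.00615) and when only EVP and D were fitted (limma adjusted p = 0.00277), and DESeq2 called it (adjusted p = 0.0102). *Mmp8*, the neutrophil collagenase, averaged 65.8, 62.1 and 19.9 in EVP, TA and D. Rodent *Mmp1a* and *Mmp1b* were covered by 12 and 62 reads in all, 35 of those of *Mmp1b* in TA replicate 2.

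Of the transmembrane MMPs, *Mmp14* and *Mmp15* behaved differently from each other. *Mmp14*, the main activator of proMMP2 at the cell surface, had 6285, 10468, 10594, 12591 and 11052 normalized counts in EVP, 5088, 4078, 4135, 7577 and 8052 in TA and 6645, 7202, 8157, 8990.1 and 6438 in D. The D libraries lay inside the range of EVP only because of EVP replicate 1, and the other EVP libraries lay above every D library. No difference was called between these populations (log2 fold change 0.42 ± 0.22 (SE), limma adjusted p = 0.227), except with limma's array weights (limma adjusted p = 0.00639). *Mmp15*, a second membrane-type enzyme, had 3.51, 1.31, 3.27, 28.8 and 68.5 in EVP, 1234, 265, 455, 311 and 135 in TA and 1322, 1150.2, 936, 2312 and 1311 in D. The highest EVP library lay below the lowest TA library, and D exceeded EVP 66.8-fold, or 153-fold without EVP replicate 5 (log2 fold change -7.09 ± 0.78 (SE), limma adjusted p = 2.78e-06). *Mmp16* averaged 158, 34.03 and 20.4 in EVP, TA and D, and most of its EVP mean came from 646 normalized counts in replicate 1. The GPI-anchored *Mmp17* and *Mmp25* stayed low, with means of 13.1, 12.8 and 8.45 and of 13.8, 27.3 and 5.68.

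**Figure D4:**
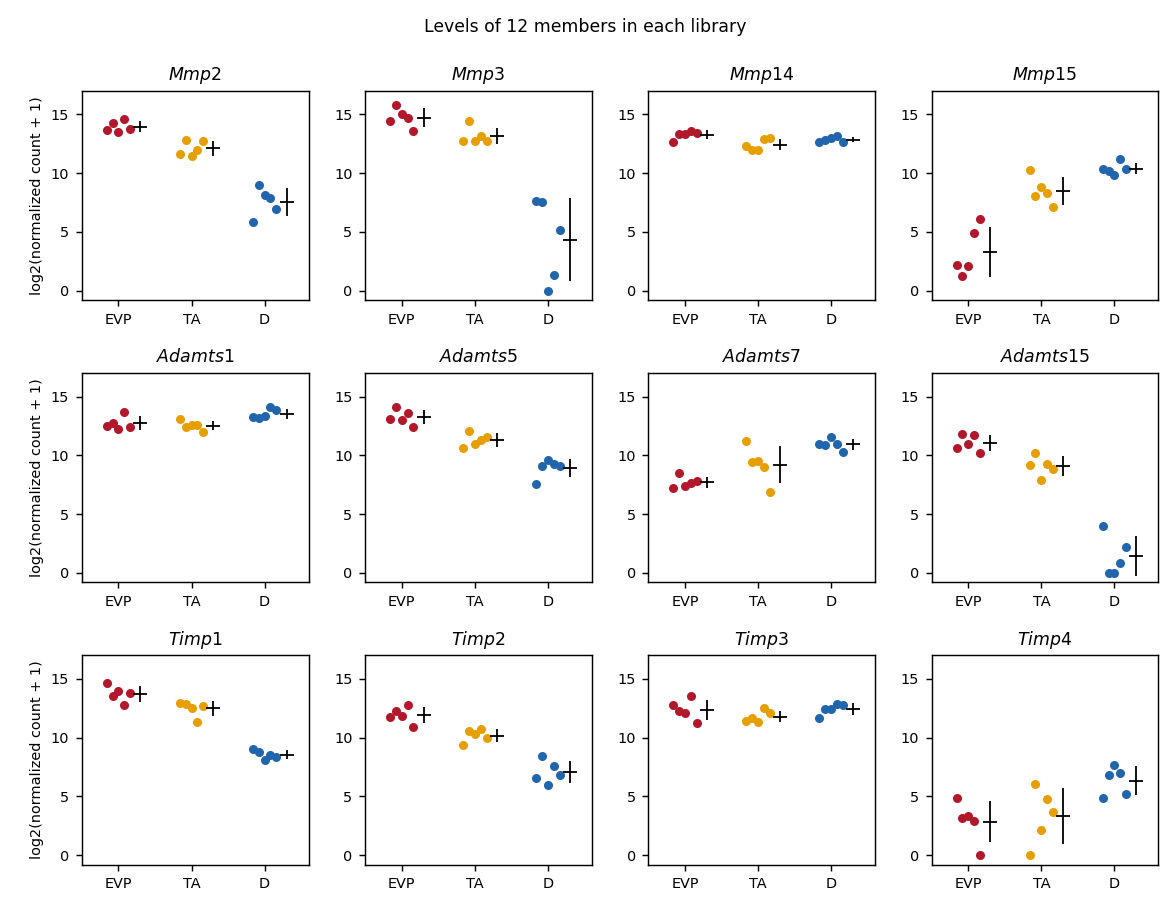
Log2(normalized count + 1) of 12 genes in each library (points, replicates 1 to 5 from left to right within a population), with mean and SD of the log2 values (black). *Mmp2*, *Adamts5* and *Timp2* step down from EVP through TA to D without overlap, *Mmp15* steps up from EVP to TA, and *Mmp14*, *Adamts1* and *Timp3* stay within a narrow band.

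Among the remaining MMPs, 3 of 7 were called, all higher in EVP. *Mmp23*, a small membrane-bound enzyme, had 3223, 4915, 3842, 3903 and 3663 normalized counts in EVP, 608, 2415, 991, 773 and 1672 in TA and 8.24, 0, 9.38, 18.03 and 18.1 in D. The 5 EVP libraries were close together and exceeded D 363-fold on average (log2 fold change 8.90 ± 0.62 (SE), limma adjusted p = 1.50e-08). *Mmp27* had 741, 1236, 976, 723 and 297 in EVP, 36.2, 185, 244, 211 and 135 in TA and 38.4, 15.5, 77.4, 10.5 and 71.9 in D. Its lowest EVP library still exceeded every TA and D library (log2 fold change 4.42 ± 0.60 (SE), limma adjusted p = 2.87e-05). *Mmp19*, which cleaves basement membrane proteins, averaged 2373 ± 449.9 in EVP, 862 ± 415 in TA and 92.95 ± 61.3 in D (log2 fold change 5.02 ± 0.51 (SE), limma adjusted p = 1.05e-06). It shares 789 bases of exon (22.3%) with *Tmem198b* on the opposite strand, and the strand setting of the counting is not given in the sources used here, so reads of the pair cannot be told apart there. *Tmem198b* averaged 487, 413 and 651 in EVP, TA and D. *Mmp12* averaged 486, 1159.6 and 521, *Mmp20* 17.5, 6.05 and 0.275, *Mmp21* 9.43, 3.399 and 3.597 and *Mmp28* 8.41, 31.6 and 31.9 in EVP, TA and D. None of these 4 was called, and *Mmp20* was at or under 3 reads in every D library.

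Of the ADAMTS genes, 8 were higher in EVP than in D, 4 were lower and 7 were not called. The procollagen N-proteinases, which remove the amino-terminal propeptide of fibrillar procollagens, were led by *Adamts2* with 11225 ± 4894 in EVP, 5055 ± 3501 in TA and 124 ± 103 in D (log2 fold change 6.90 ± 0.58 (SE), limma adjusted p = 1.57e-07). *Adamts14* averaged 603 ± 92.3 in EVP, 291 ± 214 in TA and 4.11 ± 4.34 in D (log2 fold change 7.40 ± 0.60 (SE), limma adjusted p = 9.35e-08). *Adamts3* averaged 60.3, 25.6 and 4.33 and was not called (limma adjusted p = 0.0784).

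The 7 proteoglycan-cleaving ADAMTS genes, the hyalectanases, split in direction. *Adamts5*, an aggrecanase, had 8985, 17363, 8419, 12549.6 and 5510.2 normalized counts in EVP, 1594, 4420.0, 1993, 2507 and 3068 in TA and 192, 552, 774, 628 and 559 in D. The populations did not overlap, and EVP exceeded D 19.5-fold (log2 fold change 4.31 ± 0.37 (SE), limma adjusted p = 1.70e-07). *Adamts15* had 1608, 3581, 1992, 3442 and 1149.9 in EVP, 595, 1185, 241, 635 and 455 in TA and 15.1, 0, 0, 0.751 and 3.63 in D. D replicates 2 and 3 had no read, and the mean was 604-fold higher in EVP, or 2152-fold without D replicate 1 (log2 fold change 9.66 ± 0.66 (SE), limma adjusted p = 1.16e-08).

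*Adamts1*, which cleaves versican and aggrecan, differed in the other direction from *Adamts5*. It had 5983, 7126, 4779, 13482 and 5644 in EVP, 8539, 5628, 6255, 6035 and 4187 in TA and 9881, 9074, 10719.7, 17961 and 15203 in D. Only EVP replicate 4 reached into the range of D, and D was 1.698-fold higher (log2 fold change -0.82 ± 0.26 (SE), limma adjusted p = 0.0372). This call was lost when EVP replicate 1, 2, 3 or 5 or D replicate 3, 4 or 5 was left out (limma adjusted p = 0.0507 to 0.111), without replicate 1 of every population (0.101), with no minimum mean (0.0617) and with edgeR (adjusted p = 0.0752). *Adamts4* was 2.36-fold higher in D, averaging 1948 ± 466 in EVP, 2795 ± 1406 in TA and 4593 ± 1018 in D (log2 fold change -1.24 ± 0.27 (SE), limma adjusted p = 0.00243). *Adamts9* was 5.94-fold higher in D (11.7-fold without EVP replicate 1), averaging 206 ± 228 in EVP, 485 ± 328 in TA and 1224 ± 393 in D (log2 fold change -3.00 ± 0.52 (SE), limma adjusted p = 3.54e-04). *Adamts8* and *Adamts20* averaged 61.9, 25.02 and 24.7 and 69.5, 18.9 and 9.95 in EVP, TA and D and were not called.

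*Adamts1* and *Adamts5* are neighbors on chromosome 16 on the same strand, 55.056 kb apart, and differed in opposite directions between EVP and D. The ratio of *Adamts5* to *Adamts1*, both per kilobase of exon, does not depend on the scaling of the libraries. It ran from 0.457 to 1.20 in EVP, from 0.0917 to 0.386 in TA and from 0.00956 to 0.0355 in D, so that the 3 populations did not overlap. *Adamts15* and *Adamts8* are also neighbors, on opposite strands of chromosome 9 with 20.109 kb between them. There *Adamts15* was called and *Adamts8* was not (log2 fold change 2.30 ± 0.87 (SE), limma adjusted p = 0.0798).

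The enzymes that cut cartilage oligomeric matrix protein, *Adamts7* and *Adamts12*, were also called in opposite directions. *Adamts7* had 147, 357, 167, 198 and 223 normalized counts in EVP, 2465, 683, 733, 514 and 119.6 in TA and 2015, 1870.3, 3075, 2046 and 1224 in D. TA ran from below every EVP library in replicate 5 to above 4 of the 5 D libraries in replicate 1, and D exceeded EVP 9.37-fold (log2 fold change -3.23 ± 0.54 (SE), limma adjusted p = 2.37e-04). *Adamts12* averaged 1151 ± 352 in EVP, 612 ± 318 in TA and 97.2 ± 55.1 in D (log2 fold change 3.89 ± 0.56 (SE), limma adjusted p = 4.91e-05). Of the other ADAMTS genes, *Adamts6* averaged 333, 120.1 and 59.4 in EVP, TA and D (log2 fold change 2.41 ± 0.64 (SE), limma adjusted p = 0.0119), *Adamts16* 176, 75.7 and 4.93 (log2 fold change 5.40 ± 0.76 (SE), limma adjusted p = 4.10e-05) and *Adamts19* 218, 49.7 and 9.77 (log2 fold change 6.32 ± 0.98 (SE), limma adjusted p = 1.09e-04). Most of the D mean of *Adamts19* came from 48.1 normalized counts in D replicate 1. The call of *Adamts6* was lost after quantile normalization (limma adjusted p = 0.0581) and without replicate 1 of every population (limma adjusted p = 0.0513). *Adamts10*, which acts in fibrillin microfibrils, averaged 1108, 621 and 706 and was not called (limma adjusted p = 0.0622). *Adamts13*, which cleaves von Willebrand factor, averaged 4.19, 11.3 and 5.51, *Adamts17* 27.5, 21.03 and 18.99 and *Adamts18* 228, 54.02 and 25.99, with no call in any comparison.

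The 4 inhibitors took 3 courses between EVP and D. *Timp1* had 25659, 12254, 15898, 6988 and 14296 normalized counts in EVP, 8135, 7584, 5861, 2632 and 6816 in TA and 535, 442, 268, 361 and 328 in D. Every D library lay below every other library, and EVP exceeded D 38.8-fold (log2 fold change 5.19 ± 0.33 (SE), limma adjusted p = 4.75e-09). *Timp2*, which also takes part in the activation of proMMP2 by MMP14, had 3557, 4922, 3726, 6869 and 1928 in EVP, 660.1, 1494, 1296, 1660.3 and 993 in TA and 91.98, 345, 62.5, 192 and 112 in D. The 3 populations did not overlap, and EVP was 26.2-fold higher than D (log2 fold change 4.84 ± 0.42 (SE), limma adjusted p = 1.78e-07).

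*Timp3*, which stays bound to the matrix, had 6938, 4966, 4282, 12130.0 and 2469 in EVP, 2766, 3180.5, 2544, 5729.8 and 4401 in TA and 3173, 5449, 5486, 7501 and 7225 in D. The ranges overlapped in every pair, and no comparison called it (log2 fold change -0.04 ± 0.35 (SE), limma adjusted p = 0.9504 for EVP against D, a direction that turned with edgeR and DESeq2). *Timp4* had 28.1, 7.84, 8.999, 6.39 and 0 in EVP, 0, 65.9, 3.35, 25.9 and 11.8 in TA and 28.8, 114, 206, 129 and 35.1 in D. No EVP library reached the lowest D library, but EVP replicate 1 and D replicate 1 nearly met. They differed by less than 1 read of EVP replicate 1, which equals 3.51 normalized counts. The mean was 9.995-fold higher in D than in EVP, or 17.7-fold without EVP replicate 1 (log2 fold change -3.48 ± 1.08 (SE), limma adjusted p = 0.0291). Without EVP replicate 4 or 5 or D replicate 2, 3 or 4 this call was lost (limma adjusted p = 0.0532 to 0.0826), as it was with edgeR (adjusted p = 0.0814). *Timp3* shares 1733 bases of exon (21.3%) with *Syn3* on the opposite strand, whose means were 54.9, 28.1 and 16.0. *Timp4* shares 90 bases (1.53%) with *Syn2*, also on the opposite strand, whose means of 45.0, 94.0 and 290.3 exceeded those of *Timp4*.

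The second comparison set EVP against TA, which differ by gate only in CD31. It called 7 of the 42 genes, beside 3.5% of all genes, and 6 were higher in EVP (background 1.56%) and 1 in TA (background 1.94%). The genes higher in EVP were *Mmp27* (log2 fold change 2.39 ± 0.60 (SE), limma adjusted p = 0.0351), *Adamts5* (log2 fold change 1.94 ± 0.37 (SE), limma adjusted p = 0.00751), *Mmp2* (log2 fold change 1.83 ± 0.46 (SE), limma adjusted p = 0.03302), *Timp2* (log2 fold change 1.73 ± 0.42 (SE), limma adjusted p = 0.0265), *Timp1* (log2 fold change 1.25 ± 0.33 (SE), limma adjusted p = 0.0441) and *Mmp14* (log2 fold change 0.84 ± 0.22 (SE), limma adjusted p = 0.03897). *Mmp15* alone was higher in TA, 22.8-fold, or 52.1-fold without EVP replicate 5 and 13.8-fold without TA replicate 1 (log2 fold change -5.21 ± 0.78 (SE), limma adjusted p = 0.00228). The libraries did not overlap for 8 genes, beside 4.29% of all genes, and 5 of them were called. The median log2 fold change was 0.93 over the 42 genes and 0.085 over all genes tested.

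These calls depended on the settings more than those between EVP and D. With every library scaled to the same total, 3 members were called, 2 higher in EVP and 1 in TA, against 951 of all genes (893 in the main fit). Without replicate 1 of every population limma called 0 members, against 104 of all genes, while 14 members had an unadjusted p under 0.05. The count was 2 without EVP replicate 2 and 2 without EVP replicate 3, against 429 and 472 of all genes. It was 3 without EVP replicate 4, TA replicate 1 or TA replicate 3, against 617, 614 and 560 of all genes. With edgeR 4 members were called (2.6% of all genes), and with DESeq2 12 (7.44%). *Adamts5* and *Mmp15* were each lost under only 1 of 27 settings, the one without replicate 1 of every population, with limma adjusted p = 0.0546 and 0.0602. *Mmp14* and *Timp1* were each lost under 15, *Mmp2* under 11, *Mmp27* under 10 and *Timp2* under 8 settings.

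The third comparison set TA against D. It called 19 of the 42 genes, beside 12.5% of all genes, with 17 higher in TA (background 8.21%) and 2 higher in D (background 4.31%). *Mmp10*, *Adamts14*, *Adamts15* and *Adamts16*, which passed the minimum mean only through EVP and TA, are among these 17. The largest differences were those of *Mmp3* (log2 fold change 8.83 ± 1.14 (SE), limma adjusted p = 4.72e-05), *Adamts15* (log2 fold change 7.69 ± 0.66 (SE), limma adjusted p = 4.54e-07) and *Mmp10* (log2 fold change 7.25 ± 1.04 (SE), limma adjusted p = 1.41e-04). *Mmp2*, *Timp1* and *Timp2* were also higher in TA, 20.1-fold, 16.04-fold and 7.600-fold. Higher in D were *Adamts1* (log2 fold change -1.02 ± 0.26 (SE), limma adjusted p = 0.0148) and *Adamts7* (log2 fold change -1.71 ± 0.54 (SE), limma adjusted p = 0.0459). The call of *Adamts1* was lost without D replicate 4 (limma adjusted p = 0.0504), and that of *Adamts7* under 19 of 27 settings, among them edgeR and DESeq2. Of the genes higher in TA, *Mmp27* lost its call under 10 settings, edgeR among them (adjusted p = 0.0509), *Adamts19* under 3, among them edgeR (adjusted p = 0.298) and DESeq2 (adjusted p = 0.212), and *Adamts16* under 1, quantile normalization (limma adjusted p = 0.0624). The other 14 kept theirs under all 27. *Mmp15* was not called here (log2 fold change -1.88 ± 0.78 (SE), limma adjusted p = 0.142). The libraries did not overlap for 15 genes, all of them called, beside 9.25% of all genes. The median log2 fold change was 1.75 over the 42 genes and 0.24 over all genes. With edgeR 16 members were called (10.1% of all genes), and with DESeq2 18 (16.4%).

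For 23 of the 24 genes called between EVP and D, the mean log2 level of TA lay between those of EVP and D, the exception being *Adamts1*. On this log2 scale TA was nearer to EVP than to D in 21 of the 24 (87.5%). On the scale of normalized counts the position can differ. There the TA mean of *Mmp2* (4835) lay nearer to D (240) than to EVP (16635.5). That of *Mmp10* (549) lay nearer to EVP (824) than to D (2.13). Over all 4859 genes called between EVP and D, TA lay between them in 86.7% and nearer to EVP in 67.8%, with a median position of 0.361. By direction, TA was nearer to EVP in 16 of the 18 members higher in EVP, beside 72.8% of all such genes. It was nearer to EVP in 5 of the 6 members higher in D, beside 60.2%. With the EVP mean set to 0 and the D mean to 1, the median position of TA was 0.273, and it was 0.352, 0.168, 0.338, 0.277 and 0.191 in TA replicates 1 to 5. The rule that chose these 24 genes used EVP and D, not TA, but TA shares the fit with them.

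TA libraries differed among themselves. TA replicate 1 had the highest sum of endothelial markers (68850.5) and the lowest of fibroblast markers (192799) in TA, and TA replicate 5 had the lowest endothelial (5703) and the highest fibroblast sum (611636). Of the 6 genes higher in D than in EVP, 4 reached their highest TA value in replicate 1, namely *Mmp15*, *Adamts1*, *Adamts4* and *Adamts7*, and 4 had their lowest in replicate 5. Of the 18 genes higher in EVP, 8 had their highest TA value in replicate 2 and 5 in replicate 5, while 8 had their lowest in replicate 1. Macrophage markers summed to 44380 in TA replicate 4, their highest value in any library, beside 2709 normalized counts of *Mmp12* in that library. In EVP both were highest in replicate 5, with a sum of 12503 beside 1216 of *Mmp12*. Other libraries differed in order, with a sum of 16700 beside 332 of *Mmp12* in TA replicate 5. Whether the 2 ran together was not tested. In D replicate 2 the sum was 6118 beside 829 of *Mmp12*. Neutrophil markers ran from 89.6 in TA replicate 1, where *Mmp8* had 133 normalized counts, to 4562 in TA replicate 2, where it had 80.0, and the highest *Mmp8* value, 197 in EVP replicate 1, stood beside a neutrophil sum of 214. Markers of other cells were also higher in TA than in D, namely all 8 keratinocyte, all 7 melanoma, 6 of 10 mural and 5 of 7 pan-leukocyte markers (background 8.21%). Their sums in EVP, TA and D ran from 1772 to 9175, 2106 to 83297 and 88.6 to 3019 for keratinocyte, from 30159 to 69928, 71445 to 181758 and 19027 to 50263 for melanoma, from 7449 to 34637, 6231 to 157242 and 5227 to 10912.5 for mural and from 1246 to 8322, 2892 to 25451 and 1022 to 2497 for pan-leukocyte markers. No marker of these 4 lists was without reads throughout a population. Of the macrophage markers 1 of 10 was higher in TA than in D, and of 6 neutrophil markers tested 0 were. Between EVP and D, 5 of 8 keratinocyte, 4 of 10 mural and 1 of 10 macrophage markers were higher in EVP (background 11.6%). In D, 2 mural markers were higher (background 7.46%). What part these cells had in the values was not tested.

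Levels between genes were compared per length, as normalized counts per kilobase of exon. In EVP the highest means were those of *Mmp3* at 17182 ± 9624, *Timp1* at 16913 ± 7693 and *Mmp2* at 4935 ± 1747. *Mmp3* and *Timp1* did not differ beyond their spread. TA had the same 3 genes at the top, with *Timp1* at 6988 ± 2447, *Mmp3* at 5729 ± 3572 and *Mmp2* at 1434 ± 631. In D the order was another, with *Adamts1* at 2370.3 ± 724, *Mmp14* at 1256 ± 179.9 and *Adamts4* at 955 ± 212, followed by *Timp3* at 708 ± 213 and *Timp1* at 436 ± 117. *Mmp3* ranked 13 of 42 there and *Mmp2* ranked 11.

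Summed per kilobase, the *Mmp* genes reached 27742 ± 10571 in EVP, 9960 ± 4498 in TA and 1804 ± 264 in D. The *Timp* genes reached 18749 ± 7305, 7762 ± 2252 and 1202 ± 170.

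**Figure D5:**
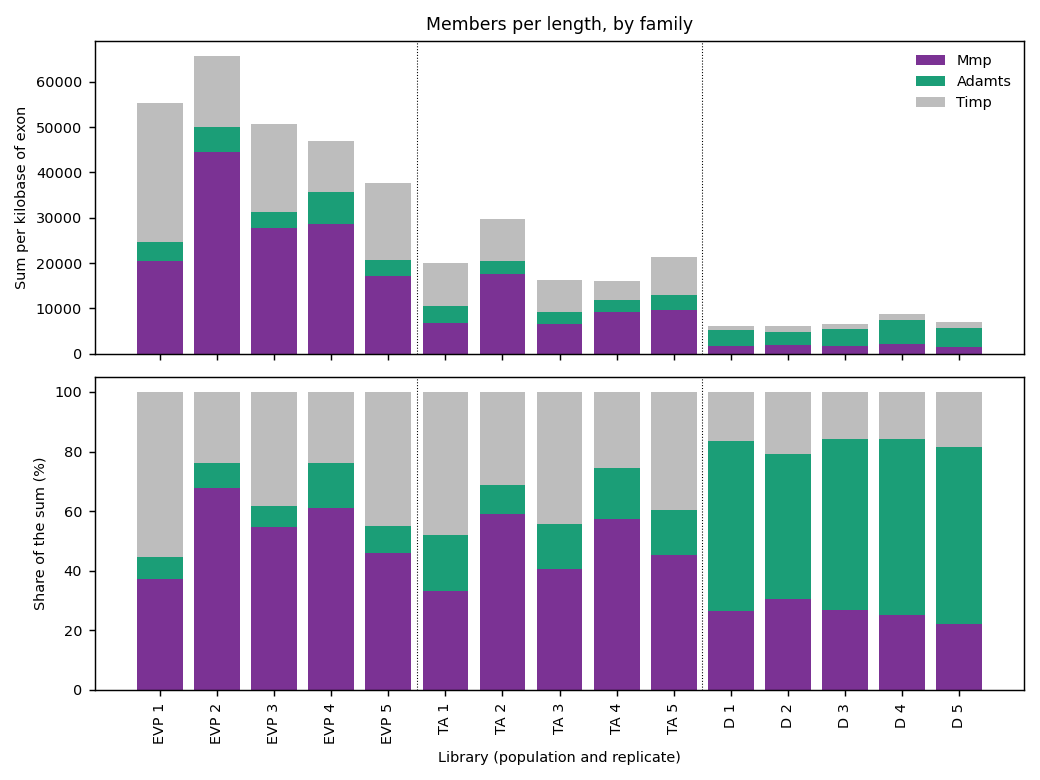
Sum of normalized counts per kilobase of exon by family in each library (top) and the share of each family in that sum (bottom, %). The total is highest in the EVP libraries and lowest in the D libraries, while the *Adamts* segment lies between 2480 and 7097 throughout, and its share is largest in the 5 D libraries.

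The *Adamts* genes summed to 4757 ± 1540.1 per kilobase in EVP, 3006 ± 487 in TA and 3914 ± 822 in D, with overlapping ranges. Their share of the summed level was 9.46% ± 3.30 in EVP, 15.1% ± 3.38 in TA and 56.3% ± 4.35 in D. No D library lay below 48.7%, and no other library lay above 18.6%. The *Mmp* share was 53.3% ± 12.1 in EVP, 47.1% ± 11.0 in TA and 26.2% ± 3.06 in D, and the *Timp* share 37.2% ± 13.7, 37.8% ± 9.29 and 17.5% ± 2.14. With the longest transcript in place of all exons, the shares in D were 48.6% for *Adamts* and 32.5% for *Mmp*.

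The ratio of summed *Mmp* to summed *Timp* levels per kilobase did not separate the populations. It ran from 0.670 to 2.85 in EVP, from 0.690 to 2.25 in TA and from 1.19 to 1.70 in D. The ratio of *Mmp2* to *Timp2* was 3.54 to 8.10 in EVP, 2.46 to 7.80 in TA and 0.707 to 5.23 in D. The overlap came from D replicate 3 alone, since the highest ratio of the other D libraries was 1.69, below every EVP and TA library.

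Genes that act with these enzymes were taken from lists by function. Over all genes tested, 11.6% were called higher in EVP than in D and 7.46% higher in D. Of 10 regulators, such as proprotein convertases, clearance receptors and other inhibitors, 6 were higher in EVP than in D and none was lower. *Lrp1*, the endocytic receptor that clears many proteinases, averaged 8347 ± 2386 in EVP, 2578 ± 606 in TA and 192 ± 42.7 in D (log2 fold change 5.41, limma adjusted p = 9.09e-11). *Pcsk5*, a proprotein convertase, had a log2 fold change of 7.03 (limma adjusted p = 1.69e-08), and *A2m*, a broad proteinase trap, one of 5.17 (limma adjusted p = 5.65e-04). Of 6 ADAMTS-like genes, which lack the catalytic domain, 4 were higher in EVP and 1 in D. *Adamtsl1*, *Adamtsl3* and *Adamtsl4* had log2 fold changes of 6.89, 6.57 and 5.01.

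Of 9 membrane ADAM genes, 3 were higher in EVP (background 11.6%) and 3 in D (background 7.46%). *Adam33* (log2 fold change 9.08) and *Adam23* (5.55), the latter without a catalytic function, were higher in EVP, and *Adam10*, a general sheddase, was higher in D (-1.73, limma adjusted p = 2.75e-05). Of the 7 genes of the plasminogen system, 5 were tested, 3 of them higher in EVP and 1 in D. The plasminogen activator *Plat* averaged 15233 ± 2822 in EVP, 6873 ± 3704 in TA and 3368 ± 775 in D (log2 fold change 2.19), and the inhibitor *Serpine2* had one of 4.55. Of 16 substrates, 14 were tested, 7 of them higher in EVP and 2 in D. *Dcn*, *Col3a1* and *Col1a2* led with log2 fold changes of 9.51, 9.08 and 8.75, and all 3 are also on the list of fibroblast markers. The median log2 fold change was 2.07 for the regulators, 4.92 for the ADAMTS-like genes, 0.22 for the membrane ADAM genes, 2.19 for the plasminogen system and 2.19 for the substrates.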

How the data were processed

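Libraries were prepared by the authors from sorted cells with a modified Smart-Seq2 protocol primed with oligo-dT and sequenced in pairs on a NextSeq500. The authors demultiplexed with bcl2fastq 2.17, aligned with STAR 2.5.3a to GRCm38 (mm10, Ensembl annotation), counted reads per gene with HTSeq-count and normalized with DESeq2 1.10.1. The values deposited by the authors are signal, that is, counts of each gene over the size factor of its library. In each library 100% of values were whole multiples of the smallest value above 0 (tolerance 0.001), which gave whole reads. The authors also deposited tables of their own comparisons (means, log2 fold changes, standard errors, statistics and p-values), which were not used.

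Normalized counts were transformed to log2(value + 1) and fitted with limma 3.58.1 in R 4.3.3 (1 coefficient per population, all 15 libraries, trend, two-sided), with Benjamini-Hochberg adjustment over 25549 genes. EdgeR 4.0.16 and DESeq2 1.42.0 were run on whole reads. In simulated data for EVP against D over 23196 genes, limma called 6.52%, 34%, 46.8% and 67.4% of log2 changes of 1, 2, 3 and 5, with 0 of the wrong sign and 1 false call, while edgeR made 1 false call and DESeq2 113. The changed genes numbered 46, 50, 47 and 46, far fewer than the 4859 called in the data, and the spread was edgeR's estimate. With few changed genes the adjustment is stricter, so these rates do not give the power or the false calls of the real comparison. The members and all lists were chosen with earlier results of these data known. Every member is named, and values in all libraries are given for the *Timp* genes, *Mmp2*, *Mmp14*, *Mmp13* and, in each comparison, the 3 called genes with the largest log2 fold change in each direction. In each list of related genes, the 3 called genes with the largest difference between EVP and D are named. Exon lengths and coordinates came from GENCODE (GRCm38), and promoters from RefSeq. Without molecular identifiers, limits of 3 reads cover counting error only.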

Additional observations from a re-analysis of the deposited data

Results flagged for a closer look

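In each population, the highest or lowest library was compared with the rest by Dixon's ratio of gap to range on the log2(normalized count + 1) scale, with a critical value of 0.71 for 5 libraries. Of 126 groups tested, 11 passed, and chance passes about 1 in 20 where values are normally distributed, which was not tested for genes with few reads. In 7 of the 11 the library was a replicate 1, the set of libraries that stood apart in read depth and in *Gm10800*. EVP replicate 1 was low for *Mmp14*, at 6285 normalized counts, and high for *Adamts20*, at 284, and for *Mmp20*, at 84.3. D replicate 1 was low for *Adamts5*, at 192, and high for *Adamts18* (89.2), *Adamts19* (48.1) and *Mmp20* (1.37, a single read). The others were *Mmp3* in TA replicate 2, high at 21719, *Mmp25* in EVP replicate 3, at 0 while the other EVP libraries had reads, *Mmp23* in D replicate 2, at 0, and *Adamts12* in D replicate 2, low at 11.4. Their causes were not tested.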

How the results depend on the processing

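The 53 log2 fold changes followed here were the 50 called in the main fit and uncalled ones of *Mmp13* and *Mmp14*. Under 27 settings each, none changed sign, 1312 of the values kept their side of the threshold, 113 lost a call and 6 gained one. Among other uncalled differences, the sign turned with scaling or tool for *Adamts17* and *Mmp17* in all 3 comparisons. It also turned for *Timp3* (EVP against D), *Adamts8*, *Adamts18* and *Mmp21* (TA against D) and *Adamts1*, *Mmp8* and *Mmp20* (EVP against TA). Of 50 called differences, 35 were never lost. The number of members called between EVP and D (24) and between TA and D (19) stayed within 1.5 times under every setting, and leaving out 1 library gave 22 to 27 and 16 to 21. Between EVP and TA (7) it was 3 with no minimum mean, 3 with every library scaled to the same total, 4 with edgeR, 12 with DESeq2, 0 without replicate 1 of every population and 2 to 9 when 1 library was left out. In the same order, 649, 951, 663, 1900, 104 and 429 to 1214 of all genes were called, beside 893 in the main fit. The cause was not tested. *Mmp13* between EVP and D gained a call with array weights, with only these populations fitted, with DESeq2, without replicate 1 of every population and without TA replicate 1, and *Mmp14* with array weights.

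With the replicate number as a block, 28 members were called between EVP and D, 8 between EVP and TA and 21 between TA and D, against 5710, 1262 and 4047 of all genes. Deviations of same-numbered libraries had correlations of -0.14 to 0.69, with 11 of 15 over 0.1. In 23 of 30 checks a library correlated best with its own number among the 5 libraries of another population. Same-numbered libraries were thus alike in most checks, though 4 of the 15 correlations, among them number 3 of EVP and TA (-0.14), were not over 0.1. What a shared number stands for is not given in the labels or methods, and it was not tested. The main fit has no block.

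Depth limits low members. In EVP replicate 1, 3 reads equal 10.5 normalized counts, above the EVP means of *Mmp21*, *Mmp28*, *Adamts13* and *Timp4*, of which *Timp4* was called between EVP and D.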
